A study of Caenorhabditis elegans with 24 samples.

Results

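The proteasome is the protease that degrades ubiquitinated proteins in the cytosol and nucleus, including misfolded proteins delivered from the ER. Its core particle is a barrel of stacked rings, with alpha subunits (*pas-* genes) in the outer rings and beta subunits (*pbs-* genes), among them the proteolytic ones, in the inner rings. The regulatory particle caps the barrel, with a ring of ATPases (*rpt-* genes) that unfolds substrates and non-ATPase subunits (*rpn-* genes) that bind, position and deubiquitinate them. In *C. elegans*, the genes of both particles are known to be induced together when proteasome function is impaired, through the transcription factor SKN-1.

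The proteasome subunit genes were taken as the genes of the count table whose symbol begins with *pas-*, *pbs-*, *rpt-* or *rpn-* followed by a digit. They numbered 33 of 46934 genes, with 14 in the core particle (7 *pas-* and 7 *pbs-* genes) and 19 in the regulatory particle (6 *rpt-* and 13 *rpn-* genes). All 33 passed the filter on low counts and were tested, with 15256 genes tested in all. Their levels were followed in 24 RNA-sequencing libraries of whole *C. elegans*, 3 biological replicates of each of 8 conditions.

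The genotypes were *hsf-1FL*, animals that overexpress full-length *hsf-1* in neurons from the *rab-3* promoter, *hsf-1CTD*, animals that overexpress from the same promoter an *hsf-1* with its C-terminus deleted, the *hsf-1(sy441)* mutant, which lacks the C-terminus of HSF-1 in all its cells, and N2, the wild-type strain. HSF-1 is the transcription factor that drives the heat-shock response. Animals of each genotype were either heat-shocked (2 h spent at 34 °C, then 1 h back at 20 °C before collection) or untreated, and all were grown at 20 °C on HT115 bacteria with the empty vector pL4440 and collected at day 1 of adulthood, about 800 animals to a sample. Each library is therefore a pool of whole animals in which the *rab-3* promoter drives the transgenes in neurons only, so that neurons make up only a share of the RNA.

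Libraries held 11215696 to 19794446 counts. The labels were checked on the heat-shock genes *hsp-70* and *hsp-16.2*, which passed the test in the 4 heat comparisons, with a log2(fold-change), the log2 of the level in heat-shocked over that in untreated animals, between 6.59 and 11.32, and on *hsf-1*, at 49.6 to 103 CPM (counts scaled to the same library total with TMM factors, edgeR's scaling for composition) in the 6 *hsf-1(sy441)* libraries against 96.3 to 165 CPM in the 6 N2 libraries. In *hsf-1FL* and *hsf-1CTD*, *hsf-1* was at 117 to 170 CPM, and counts on this gene do not separate the transgene from the endogenous gene. This range overlapped that of N2. The means were 148 and 153 against 137 CPM in untreated and 136 and 132 against 129 CPM in heat-shocked animals. Overexpression was thus not evident from *hsf-1*, which did not check the labels of these lines. The oocyte and germ line markers were detected in every library, and 3 libraries had the lowest sums of them, replicate 1 of heat-shocked N2 (9081 CPM) and replicate 3 of heat-shocked and of untreated *hsf-1(sy441)* (7109 and 7760 CPM), against 10662 to 15484 CPM in the other libraries. The medians are therefore also given without these 3 libraries.

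All subunit genes but 1 were expressed at a high and similar level. Between genes, levels were compared as CPM per kb of exon. In untreated N2 animals, the 32 genes other than *rpn-6.2* lay between 106.7 (*rpn-10*, a ubiquitin receptor) and 252 CPM per kb (*pas-3*, an alpha subunit), a range of 2.36-fold, against a median of 5.71 and an upper quartile of 35.5 CPM per kb over all genes tested. The core particle genes had a median of 186 CPM per kb, between 150.3 and 252, the ATPases a median of 188, between 111 and 235.0, and the 13 *rpn-* genes a median of 162. In the order of levels in untreated N2, 3 of the 31 steps between neighbours among the 32 genes were wider than the larger of the neighbours' SDs. These steps were below *pbs-3*, *rpn-6.1* and *rpn-13*. The exons of these genes range in length from 801 bases for *pbs-4* to 3171 bases for *rpn-1*.

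**Figure D1:**
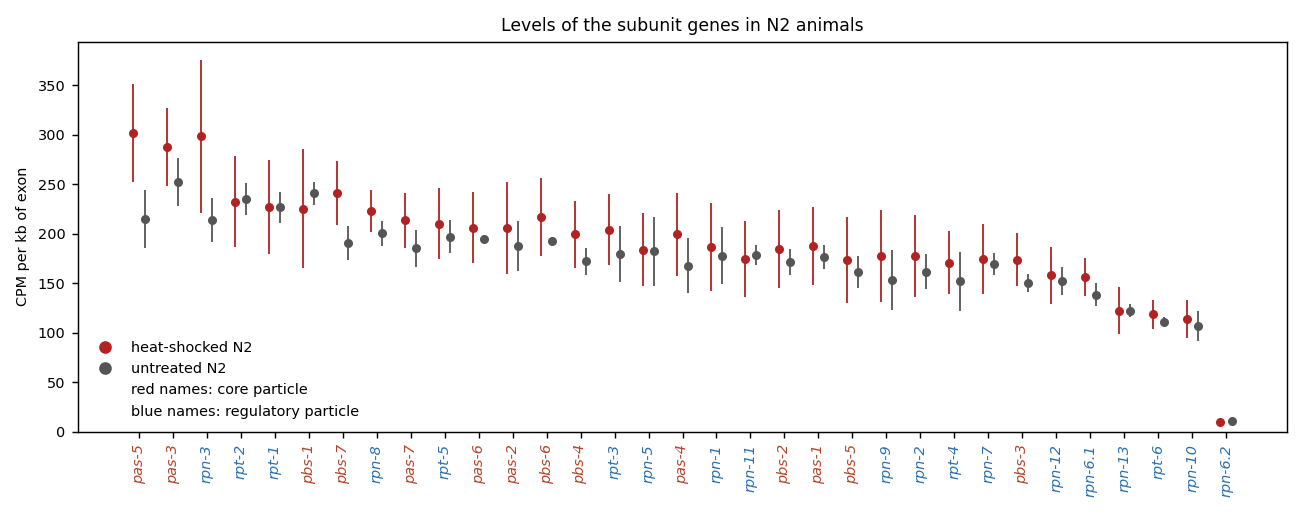
Level of each subunit gene in CPM per kb of exon in heat-shocked (red) and untreated (grey) N2 animals, as the mean of 3 libraries with its SD. Genes run from high to low by their mean over the 8 conditions. All genes but *rpn-6.2* lie in a band, 106.7 to 252 CPM per kb in untreated N2 animals, and the SDs of heat-shocked N2 animals are wide.

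The highest gene over the 8 conditions was *pas-5*, an alpha subunit of the core particle (chromosome I: 10566350 to 10567300, plus strand, WBcel235), with 302 ± 49.7 CPM per kb in heat-shocked N2 and 215 ± 29.6 CPM per kb in untreated N2 (SD, n = 3 each). The lowest was *rpn-6.2*, a paralog of the regulatory particle gene *rpn-6.1*. The pair lies on chromosome III, *rpn-6.1* at 6959110 to 6962001 and *rpn-6.2* at 8999817 to 9001999, both on the minus strand. In untreated N2, *rpn-6.1* had 138.6 ± 11.4 and *rpn-6.2* had 10.3 ± 1.07 CPM per kb (SD, n = 3), a ratio of 13.4. How reads shared by the paralogs were counted is not given in the sources used here, so this ratio is uncertain.

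The level of *rpn-6.2* was about the same in all conditions but uneven between replicates. In CPM it was 15.5, 15.2 and 21.7 in heat-shocked *hsf-1FL* against 16.1, 15.4 and 17.3 in untreated *hsf-1FL* (replicates 1, 2 and 3), 13.7, 13.9 and 22.02 in heat-shocked *hsf-1CTD* against 14.8, 14.5 and 17.3 in untreated *hsf-1CTD*, and 13.3, 12.2 and 25.5 in heat-shocked *hsf-1(sy441)* against 14.7, 12.04 and 22.1 in untreated *hsf-1(sy441)*. In N2 it was 16.9, 11.9 and 18.4 CPM in heat-shocked and 17.9, 15.5 and 14.7 CPM in untreated animals. The heat-shocked and untreated groups overlapped in all genotypes, and the highest libraries were replicate 3 of *hsf-1(sy441)*. Those libraries also had the highest sums of 56 sperm genes (*msp-*, *nspd-*, *ssp-* and *spch-*), 1971 CPM in heat-shocked and 1552 CPM in untreated animals, against 6.96 to 580.4 CPM in the other 22 libraries. Within conditions, the library highest in sperm genes was also highest in *rpn-6.2* in 3 of 8, and the part of sperm RNA in the level of *rpn-6.2* was not tested.

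The first question was whether heat-shock altered the subunit genes in each genotype. Most subunit genes had a somewhat higher scaled level in heat-shocked animals, and no subunit gene passed the test. The log2(fold-change) of heat-shocked over untreated animals had a median over the 33 genes of 0.19 in *hsf-1FL*, 0.08 in *hsf-1CTD*, 0.20 in *hsf-1(sy441)* and 0.11 in N2, against −0.03, −0.02, 0.06 and 0.02 over all genes tested. It was above 0 for 32 of 33 genes in *hsf-1FL*, 25 in *hsf-1CTD*, 30 in *hsf-1(sy441)* and 28 in N2, where 47.0%, 47.6%, 55.2% and 52.1% of all genes were above 0. In whole animals, more RNA of a gene per cell and more cells that express it cannot be told apart.

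In *hsf-1FL*, 0 of 33 genes were differentially expressed genes (DEGs; edgeR quasi-likelihood F-test with Benjamini-Hochberg adjustment over all genes tested, adjusted P-value under 0.01), where 0.819% of all genes were, and 8 were past an unadjusted P-value of 0.05, all of them higher in heat-shocked animals, where 6.63% of all genes were past it and higher. In *hsf-1CTD*, 0 were DEGs, with 0.964% of all genes, and 3 were past the unadjusted threshold and higher, with 7.94%. In *hsf-1(sy441)*, 0 were DEGs, with 1.72% of all genes, and 8 were past the unadjusted threshold and higher, with 11.5%. In N2, 0 were DEGs, with 0.669% of all genes, and 3 were past the unadjusted threshold and higher, with 7.09%. The shares past the unadjusted threshold and higher were thus 24.2%, 9.09%, 24.2% and 9.09% of the subunit genes, above the background in *hsf-1FL* and *hsf-1(sy441)* and near it in *hsf-1CTD* and N2. No subunit gene was past this threshold and lower.

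DESeq2 called 1 subunit gene in *hsf-1FL* (*rpn-3*), where it called 3.23% of all genes, 0 in *hsf-1CTD*, with 3.74%, 1 in *hsf-1(sy441)* (*rpn-8*), with 4.90%, and 0 in N2, with 2.40%. Same-numbered heat-shocked and untreated libraries deviated together in *hsf-1FL*, *hsf-1(sy441)* and N2. With the replicate number as a block within genotype, edgeR called 3 subunit genes in *hsf-1FL* (*pas-5*, *pbs-7* and *rpn-3*), with 3.49% of all genes, 0 in *hsf-1CTD*, with 3.88%, 2 in *hsf-1(sy441)* (*pbs-7* and *rpn-8*), with 6.09%, and 1 in N2 (*pas-5*), with 2.08%. Every one of these calls was for a higher level in heat-shocked animals. The 95% interval of a single log2(fold-change) reached a median of 0.29 to either side of its value, with SEs between 0.102 and 0.278.

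**Figure D2:**
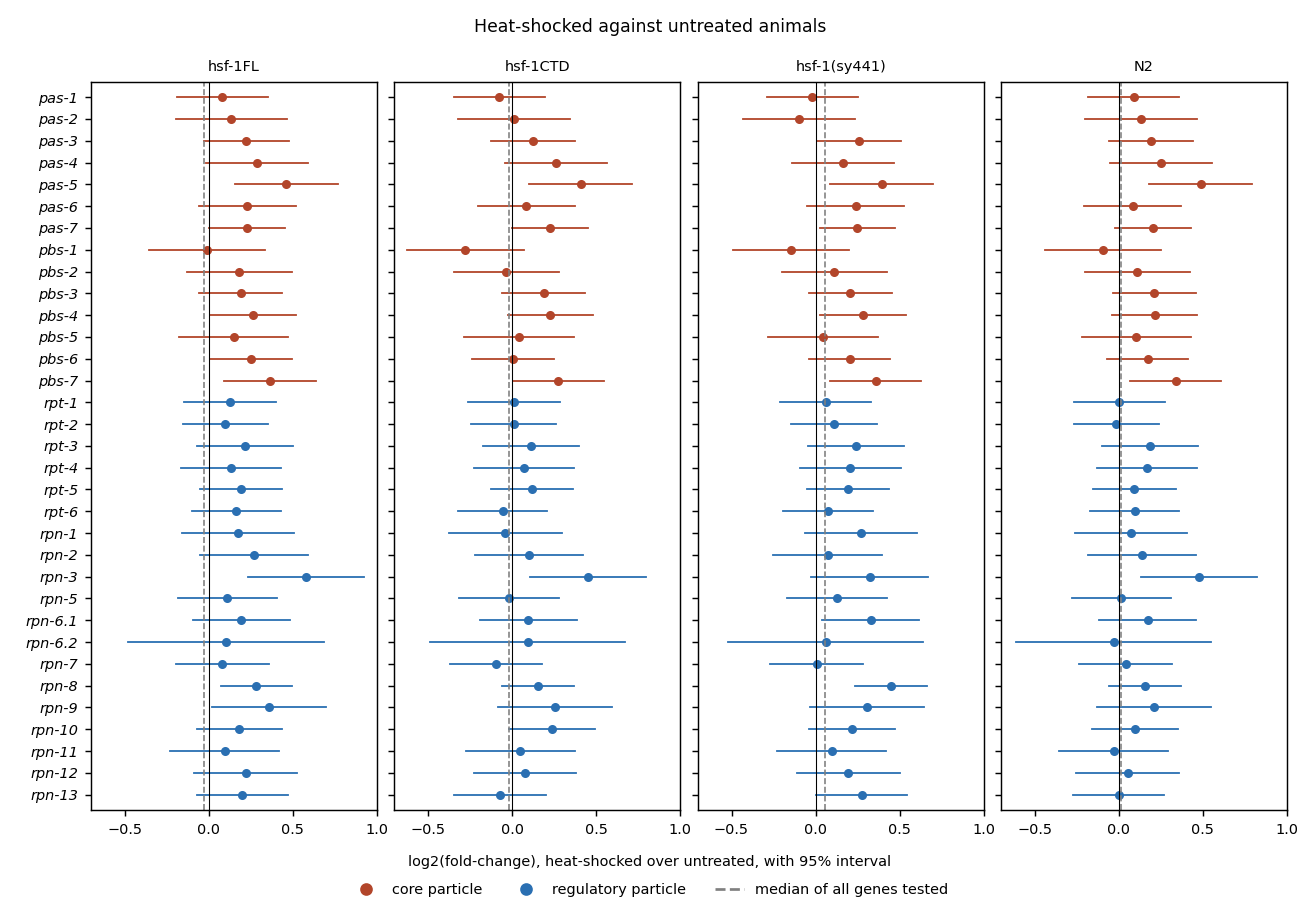
The log2(fold-change) of heat-shocked over untreated animals for the 33 subunit genes in each genotype, with 95% intervals from the edgeR fit. Core particle genes are red and regulatory particle genes blue, and the dashed line is the median of all genes tested. Most points lie to the right of the dashed line, with *pas-5* and *rpn-3* among the farthest in each panel and *pbs-1* below 0 in all 4.

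The values of the core and the regulatory particle were similar. The median log2(fold-change) of the core particle genes was 0.23 in *hsf-1FL*, 0.10 in *hsf-1CTD*, 0.21 in *hsf-1(sy441)* and 0.18 in N2, and that of the regulatory particle genes was 0.18, 0.08, 0.20 and 0.09 in the same order. By family, the medians in N2 were 0.19 for *pas-*, 0.17 for *pbs-*, 0.09 for *rpt-* and 0.07 for *rpn-* genes. The ratio of the summed CPM of the core particle to that of the regulatory particle was 0.472 to 0.482 in heat-shocked against 0.468 to 0.490 in untreated *hsf-1FL*, and 0.464 to 0.509 against 0.463 to 0.511 in *hsf-1(sy441)*. It was 0.439 to 0.545 in heat-shocked against 0.461 to 0.471 in untreated *hsf-1CTD*, and 0.489 to 0.504 against 0.460 to 0.494 in N2. The ranges of heat-shocked and untreated libraries overlapped in all 4 genotypes. The highest ratio of all, 0.545, was that of replicate 3 of heat-shocked *hsf-1CTD*.

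Groups that did not overlap were counted next. Every heat-shocked library was above every untreated library for 17 of 33 subunit genes in *hsf-1FL* (9 core and 8 regulatory), where this held for 12.2% of all genes. It held for 9 in *hsf-1CTD* (5 core and 4 regulatory) with 15% of all genes, for 4 in *hsf-1(sy441)* (3 core and 1 regulatory) with 10.7%, and for 2 in N2 (both core) with 8.52%. As shares of the 33, these were 51.5%, 27.3%, 12.1% and 6.06%, so that in *hsf-1(sy441)* and N2 the share was near the background. No subunit gene had every heat-shocked library below every untreated one in any genotype. Between the heat-shocked and the untreated library of the same number, 10 of 33 genes were higher in all 12 pairs, where 7.40% of all genes were. These were *pas-4*, *pas-5*, *pas-7*, *pbs-4* and *pbs-7* of the core and *rpt-3*, *rpn-3*, *rpn-8*, *rpn-9* and *rpn-10* of the regulatory particle.

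The heat comparisons share no libraries, and the order of the genes within them was alike, in a range that overlapped that of all genes. They are not fully independent, since same-numbered heat-shocked libraries of *hsf-1FL* and *hsf-1CTD* also deviated together with those of N2. For *hsf-1(sy441)* this was weak. The correlations over genes with heat-shocked N2 were 0.30 to 0.56 in *hsf-1FL*, 0.25 to 0.49 in *hsf-1CTD* and 0.07 to 0.19 in *hsf-1(sy441)*. Those of untreated libraries with untreated N2 were 0.19 to 0.33, −0.27 to 0.26 and 0.09 to 0.16 in the same order. The log2(fold-change) was above 0 in all 4 genotypes for 21 of 33 genes (10 core and 11 regulatory), where this held for 27.4% of all genes. Spearman's rho over the 33 genes between any pair of the 4 heat comparisons lay between 0.62 and 0.79, against 0.56 to 0.68 over all genes tested. The genes are not independent replicates, so rho is given without a test. Genes described one by one from here on, other than *pas-5* and *rpn-6.2*, were chosen after their values were seen. The choice of *pas-5*, as the highest over the 8 conditions, used its heat-shocked levels too. In untreated N2 it was at 215 CPM per kb, below *pas-3* at 252 CPM per kb.

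Of the alpha subunits, *pas-5* was the only subunit gene whose heat-shocked and untreated libraries did not overlap in any of the 4 genotypes. It had 245, 284 and 279 CPM in heat-shocked against 174, 201 and 212 CPM in untreated *hsf-1FL*, and 235.4, 238 and 304 CPM in heat-shocked against 202, 180.2 and 204 CPM in untreated *hsf-1CTD*. In *hsf-1(sy441)* it had 249.8, 257 and 249 CPM in heat-shocked against 181, 229.9 and 164 CPM in untreated animals. In N2 it had 211, 268 and 295 CPM in heat-shocked against 156, 189.6 and 206 CPM in untreated animals. The heat-shocked libraries were thus the higher ones throughout, and the gap was narrow in N2, where the lowest heat-shocked library was replicate 1. The log2(fold-change) was 0.46 ± 0.15 in *hsf-1FL*, 0.41 ± 0.15 in *hsf-1CTD*, 0.39 ± 0.15 in *hsf-1(sy441)* and 0.49 ± 0.15 in N2 (SE), with adjusted P-values of 0.101, 0.141, 0.131 and 0.101 (edgeR). With the replicate block they were 0.0082, 0.0160, 0.0112 and 0.0090.

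**Figure D3:**
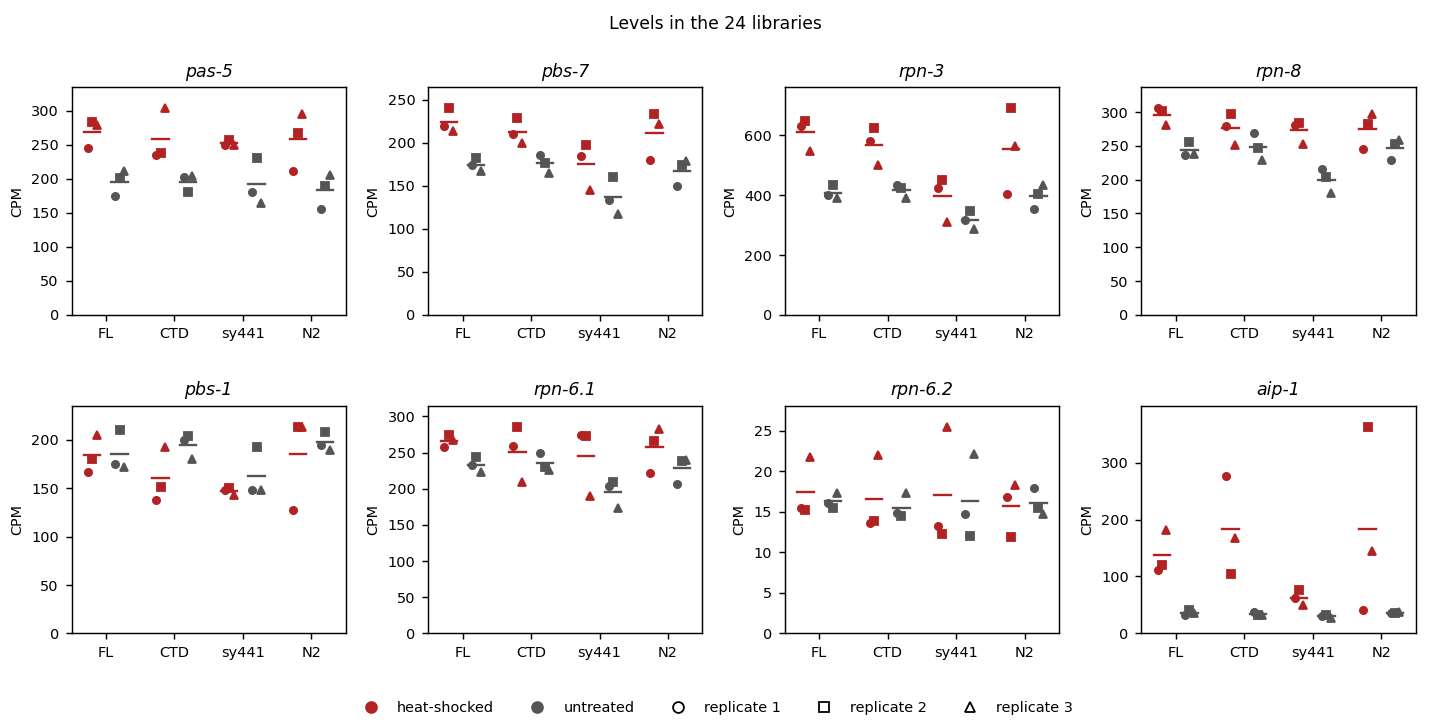
Level in CPM of 7 subunit genes and of *aip-1* in each of the 24 libraries, heat-shocked (red) left of untreated (grey) for *hsf-1FL* (FL), *hsf-1CTD* (CTD), *hsf-1(sy441)* (sy441) and N2, with a line at the mean of 3 libraries and a symbol for each replicate number. For *pas-5* the red points lie above the grey ones in each genotype, while for *pbs-1* and *rpn-6.2* they overlap. Replicate 1 of heat-shocked N2 (red circle) is the lowest of its group in all panels but that of *rpn-6.2*.

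Of the beta subunits, *pbs-7*, which is not one of the proteolytic ones (chromosome I: 8695205 to 8696301, minus strand), had 219, 240.3 and 214 CPM in heat-shocked against 174, 183 and 167 CPM in untreated *hsf-1FL*, and 209.8, 228 and 200 CPM in heat-shocked against 186, 177 and 165 CPM in untreated *hsf-1CTD*. It had 185, 197 and 146 CPM in heat-shocked against 134, 160.5 and 117 CPM in untreated *hsf-1(sy441)*, and 180.0, 234 and 221 CPM in heat-shocked against 150.1, 174 and 178 CPM in untreated N2. Only in *hsf-1(sy441)* did the groups overlap, through replicate 3 of the heat-shocked animals. The log2(fold-change) was 0.36 ± 0.13, 0.27 ± 0.13, 0.36 ± 0.13 and 0.34 ± 0.13 (SE) in *hsf-1FL*, *hsf-1CTD*, *hsf-1(sy441)* and N2, with adjusted P-values of 0.159, 0.297, 0.121 and 0.238 (edgeR), or 0.0075, 0.0277, 0.0059 and 0.0156 with the replicate block. The table places 70 bases of *pbs-7* exon within the gene *K07A12.5* on the same strand, which had a mean of 49.3 counts.

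The gene *pbs-1*, which encodes a subunit of the proteolytic type (chromosome IV: 1708814 to 1709745, minus strand), was the only one with a negative log2(fold-change) in all 4 genotypes, −0.01 ± 0.17 in *hsf-1FL*, −0.28 ± 0.17 in *hsf-1CTD*, −0.15 ± 0.17 in *hsf-1(sy441)* and −0.10 ± 0.17 in N2 (SE), where 26.1% of all genes were negative in all 4. Its groups overlapped in every genotype. The values were 138, 152 and 192 CPM in heat-shocked against 200.1, 204 and 180.5 CPM in untreated *hsf-1CTD*, where the adjusted P-value was 0.439 (edgeR). In N2, its sign was turned by leaving out replicate 1 of the heat-shocked animals, with a log2(fold-change) of 0.11 without it, and in *hsf-1FL* the sign also depended on the scaling. The other beta subunits of the proteolytic type, *pbs-2* and *pbs-5*, had log2(fold-change) values between −0.04 and 0.18.

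Among the ATPases, *rpt-3* had the largest mean log2(fold-change) over the 4 heat comparisons, 0.19, and *rpt-1* the smallest, 0.05, and the 6 genes lay between −0.06 and 0.24 in single comparisons. No ATPase was past an unadjusted P-value of 0.05 in any heat comparison. The means of the *rpn-* genes ran between 0.01 for *rpn-7*, a lid subunit, and 0.46 for *rpn-3*. Those of the *pas-* genes ran between 0.02 for *pas-1* and 0.44 for *pas-5*.

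The largest mean of all 33 genes, 0.46, was that of *rpn-3*, a structural subunit of the lid of the regulatory particle (chromosome III: 8447353 to 8449346, plus strand). It had 632, 649 and 548 CPM in heat-shocked against 399, 436 and 391.5 CPM in untreated *hsf-1FL*, and 579.8, 626 and 499 CPM in heat-shocked against 433, 424 and 389.9 CPM in untreated *hsf-1CTD*. Neither genotype showed any overlap. It had 425, 452 and 311 CPM in heat-shocked against 316, 348 and 286 CPM in untreated *hsf-1(sy441)*, and 405, 692 and 566 CPM in heat-shocked against 354, 403 and 435 CPM in untreated N2. In these 2 genotypes the groups overlapped through a single heat-shocked library each, replicate 3 of *hsf-1(sy441)* and replicate 1 of N2. The log2(fold-change) was 0.58 ± 0.17, 0.45 ± 0.17, 0.32 ± 0.17 and 0.48 ± 0.17 (SE) in the same order, with adjusted P-values of 0.0651, 0.152, 0.296 and 0.169 (edgeR). The value in N2 was 0.29 without replicate 2 and 0.66 without replicate 1 of the heat-shocked animals, and that in *hsf-1(sy441)* lay between 0.21 and 0.45 with 1 library left out. In *hsf-1FL* the adjusted P-value was 0.0070 with DESeq2 and 0.0063 with the replicate block, and over all alternatives it lay between 0.0030 and 0.222.

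The lowest adjusted P-value of the heat comparisons was that of *rpn-8* in *hsf-1(sy441)*. This gene (chromosome I: 4175319 to 4177271, plus strand) encodes the lid subunit that pairs with the deubiquitinase RPN-11. It had 282, 284 and 253 CPM in heat-shocked against 216, 204 and 180.3 CPM in untreated *hsf-1(sy441)*, with no overlap. The log2(fold-change) there was 0.45 (SE 0.10), and its adjusted P-value of 0.0140 (edgeR) lay between 3.99e-06 and 0.298 over the alternatives, 0.0017 with the replicate block and 0.0076 without replicate 3 of the heat-shocked animals. In *hsf-1FL* it had 306, 302 and 281 CPM in heat-shocked against 237, 256 and 238 CPM in untreated animals, also without overlap, and a log2(fold-change) of 0.28 ± 0.10. It had 279.7, 298 and 251 CPM in heat-shocked against 269, 246 and 229 CPM in untreated *hsf-1CTD*, and 246, 282 and 297 CPM in heat-shocked against 229, 253 and 259 CPM in untreated N2. In *hsf-1CTD* and N2 the groups thus overlapped and the log2(fold-change) was 0.15 ± 0.10 in both. The gene of its partner, *rpn-11*, had log2(fold-change) values between −0.03 and 0.10 in the 4 genotypes.

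The lid gene *rpn-9* had log2(fold-change) values of 0.36, 0.25, 0.30 and 0.21 in *hsf-1FL*, *hsf-1CTD*, *hsf-1(sy441)* and N2. The base subunits *rpn-1* and *rpn-2*, which hold the ATPase ring, lay between −0.04 and 0.27, and the ubiquitin receptors *rpn-10* and *rpn-13* between −0.07 and 0.27. The gene *rpn-6.1*, whose product joins the lid to the core particle, had 274, 272 and 189.7 CPM in heat-shocked against 204, 209 and 173 CPM in untreated *hsf-1(sy441)*, with a log2(fold-change) of 0.33 ± 0.14 (SE) and an adjusted P-value of 0.191 (edgeR). Its groups overlapped through replicate 3 of the heat-shocked animals.

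The heat response of N2 depended most on single libraries. Without replicate 1 of heat-shocked N2 the median log2(fold-change) of the 33 genes in N2 was 0.27, with 32 above 0, while it was 0.06 without replicate 2 and 0.02 without replicate 3 of the heat-shocked animals. It was 0.05 without replicate 1 and 0.17 without replicate 2 of the untreated animals. In *hsf-1CTD* the median was 0.05 without replicate 2 of the heat-shocked and 0.13 without replicate 1 of the untreated animals, and in *hsf-1(sy441)* it was 0.14 without replicate 3 of the untreated animals. No library left out moved the median of *hsf-1FL* by over 1.5 times. With surrogate variables (estimates of hidden differences between libraries) in the edgeR fit, the median in *hsf-1CTD* was −0.10, and those of *hsf-1FL*, *hsf-1(sy441)* and N2 were 0.08, 0.12 and 0.09. With scaling by library size only, the median of all genes in *hsf-1CTD* was 0.10 and that of the subunit genes 0.22.

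The second question was whether the heat response of the subunit genes differed from that of N2 in the other genotypes (interaction). No difference was detectable. The median difference over the 33 genes was 0.08 for *hsf-1FL*, −0.04 for *hsf-1CTD* and 0.06 for *hsf-1(sy441)*, against −0.04, −0.05 and 0.02 over all genes tested. The test called 0 subunit genes for each genotype, as it called 0% of all genes, and 0 subunit genes were past an unadjusted P-value of 0.05, where 0.596%, 0.583% and 3.26% of all genes were. DESeq2 called 0 subunit genes as well and between 2 and 6 genes in all. The 95% intervals of single genes reached a median of 0.41 to either side. The largest difference was 0.29 for *rpn-8* in *hsf-1(sy441)*, with an interval of −0.01 to 0.60. The sign of the medians depended on single libraries. Without replicate 1 of heat-shocked N2 they were −0.07, −0.17 and −0.09 in the same order of genotypes, and without replicate 3 of heat-shocked N2 they were 0.15, 0.03 and 0.13. The median in *hsf-1CTD* also turned without replicate 2 of heat-shocked N2 (0.03) or replicate 1 of untreated N2 (0.03). That in *hsf-1(sy441)* also turned without replicate 3 of untreated N2 (−0.02), replicate 2 of heat-shocked *hsf-1(sy441)* (−0.0077) or replicate 3 of untreated *hsf-1(sy441)* (−0.0059). Without the 3 libraries of the lowest germ line marker sums, the medians were −0.04, −0.18 and −0.10. Each of the 3 comparisons uses the same N2 libraries.

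The third question was whether the genotypes differed from N2 under the same treatment. In untreated *hsf-1(sy441)* animals most subunit genes were lower than in untreated N2, and none passed the test. The median log2(fold-change) of *hsf-1(sy441)* over N2 was −0.26 in untreated animals, with −0.28 for the core and −0.25 for the regulatory particle, against 0.04 over all genes tested, and 31 of 33 genes were below 0, all but *pas-5* and *rpn-6.2*. In heat-shocked animals it was −0.23, with −0.27 for the core and −0.14 for the regulatory particle, against 0.02 over all genes tested, and 32 of 33 were below 0, all but *rpn-6.2*.

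In untreated animals, 0 of 33 genes were DEGs (edgeR, adjusted P-value under 0.01), where 0.610% of all genes were, and 11 were past an unadjusted P-value of 0.05, all lower, where 13.4% of all genes were past it and lower. In heat-shocked animals 0 were DEGs, where 0.891% of all genes were, and 9 were past the unadjusted threshold, all lower, where 8.43% of all genes were past it and lower. The 11 and 9 genes are 33.3% and 27.3% of the subunit genes, above these shares of all genes. DESeq2 called 0 subunit genes in both, with 7.38% of all genes in untreated and 6.72% in heat-shocked animals. Every *hsf-1(sy441)* library was below every N2 library for 11 of 33 subunit genes in untreated animals (5 core and 6 regulatory), where 13.8% of all genes were, and for 1 in heat-shocked animals (*pas-7*), where 6.38% were. The comparisons in untreated and in heat-shocked animals share no libraries. Same-numbered heat-shocked and untreated libraries deviated together in both genotypes, though, so these comparisons are not independent.

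**Figure D4:**
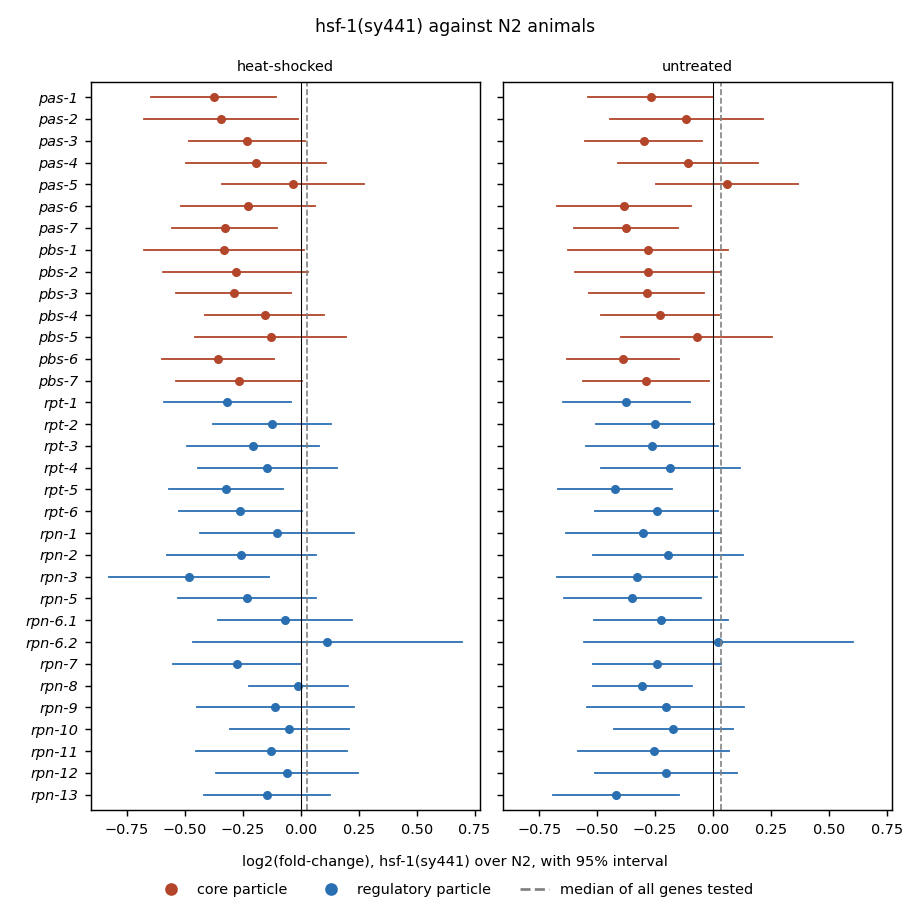
The log2(fold-change) of *hsf-1(sy441)* over N2 for the 33 subunit genes in heat-shocked and in untreated animals, with 95% intervals from the edgeR fit, core particle genes in red and regulatory particle genes in blue. Nearly all points lie below 0, with a median of −0.23 in heat-shocked and −0.26 in untreated animals, while the median of all genes (dashed) is just above 0.

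The lowest adjusted P-values were those of *rpt-5*, *pas-7* and *pbs-6* in untreated animals. The ATPase gene *rpt-5* (chromosome I: 5741868 to 5743571, minus strand) had 217, 242 and 199 CPM in untreated *hsf-1(sy441)* against 267, 299.5 and 316 CPM in untreated N2, with no overlap and a value of −0.42 ± 0.12 on the log2 scale (SE; adjusted P = 0.0371, edgeR). In heat-shocked animals it had 260.3, 266 and 225 CPM in *hsf-1(sy441)* against 253, 334 and 354 CPM in N2. The lowest N2 library, replicate 1, lay within the *hsf-1(sy441)* group, and the log2(fold-change) was −0.32 ± 0.12 (adjusted P = 0.0922).

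The alpha subunit gene *pas-7* (chromosome II: 10098782 to 10099854, minus strand) had 137, 149 and 133 CPM in untreated *hsf-1(sy441)* against 162, 199 and 183 CPM in untreated N2, and 172, 172 and 155 CPM in heat-shocked *hsf-1(sy441)* against 178, 223 and 226 CPM in heat-shocked N2. It was the only subunit gene without overlap under both treatments, with a log2(fold-change) of −0.38 ± 0.11 in untreated and −0.33 ± 0.11 in heat-shocked animals (SE; adjusted P = 0.0412 and 0.0676, edgeR). The beta subunit gene *pbs-6* (chromosome III: 8243122 to 8244092, minus strand) had 122, 143 and 122 CPM in untreated *hsf-1(sy441)* against 174, 167 and 165 CPM in untreated N2, and 153, 156 and 137 CPM in heat-shocked *hsf-1(sy441)* against 150.2, 212 and 209 CPM in heat-shocked N2. Its log2(fold-change) was −0.39 ± 0.12 in untreated and −0.36 ± 0.12 in heat-shocked animals (adjusted P = 0.0455 and 0.0664). Without replicate 1 of heat-shocked N2 the value in heat-shocked animals was −0.49 ± 0.10, with an adjusted P-value of 0.0088, past the threshold.

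The subunit gene with the largest difference in heat-shocked animals was *rpn-3*, with 425, 452 and 311 CPM in *hsf-1(sy441)* against 405, 692 and 566 CPM in N2, lower by a log2 value of −0.48 ± 0.17 (SE; adjusted P = 0.0779, edgeR). Without replicate 2 of heat-shocked N2 this value was −0.29, and without replicate 1 it was −0.66. In contrast to most subunit genes, *pas-5* had log2(fold-change) values of 0.06 in untreated and −0.03 in heat-shocked animals. The median of all 33 genes in heat-shocked animals was −0.35 without replicate 1 and −0.14 without replicate 3 of heat-shocked N2.

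In *hsf-1FL* and *hsf-1CTD* no subunit gene was called against N2. In untreated animals the median log2(fold-change) over N2 was 0.02 for *hsf-1FL* and 0.04 for *hsf-1CTD*, with 23 and 28 of 33 genes above 0, where 50.6% of all genes were in each, and 0 of 33 genes were DEGs in either, where 0.0197% of all genes were in each. In *hsf-1FL* 0 subunit genes were past an unadjusted P-value of 0.05, where 7.44% of all genes were, and in *hsf-1CTD* 0 were, where 1.20% were. In heat-shocked animals the median was 0.11 for *hsf-1FL* and 0.01 for *hsf-1CTD*, with 32 and 20 of 33 genes above 0, where 48.13% and 44.2% of all genes were. There 0 of 33 were DEGs, with 0.0197% of all genes in *hsf-1FL* and 0.0131% in *hsf-1CTD*, and 0 were past the unadjusted threshold, with 6.35% and 3.70% of all genes. DESeq2 also called 0 subunit genes in these 4 comparisons. Without replicate 1 of heat-shocked N2, the medians in heat-shocked animals were −0.04 for *hsf-1FL* and −0.11 for *hsf-1CTD* (−0.04 and −0.12 without the 3 libraries of the lowest germ line marker sums), and without replicate 1 of untreated N2, those in untreated animals were −0.05 and −0.02. The sign of the median also turned without replicate 2 of untreated *hsf-1FL* (−0.02), replicate 1 of untreated *hsf-1CTD* (−0.0032) or replicate 2 of heat-shocked *hsf-1CTD* (−0.03). All genotypes are set against the same N2 libraries.

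Within conditions, the lowest summed level of the subunit genes went with the lowest level of the oocyte and germ line markers. The 12 markers (such as *oma-1*, *puf-5*, *cpg-1* and *glp-1*) were all present in every library, and their CPM were summed. In 8 of 8 conditions the library with the lowest sum of them was also the library with the lowest sum of the 33 subunit genes. In N2, the subunit genes summed to 6414, 9096 and 9188 CPM in heat-shocked animals, with 9081, 13039 and 15481 CPM of markers, and to 6660.0, 7823 and 7951 CPM in untreated animals, with 11702, 13657 and 14245 CPM of markers. In *hsf-1(sy441)*, they summed to 7394, 7564 and 6309 CPM in heat-shocked animals, with 10977, 10673 and 7109 CPM of markers, and to 6142, 6977 and 5576 CPM in untreated animals, with 10662, 11177 and 7760 CPM of markers. The marker sums of untreated *hsf-1(sy441)* were therefore all below those of untreated N2. The subunit sums overlapped, 5576 to 6977 against 6660.0 to 7951 CPM, and 11 of 33 subunit genes were lower without overlap.

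Muscle markers (*myo-3*, *unc-54* and *unc-15*) went the other way, with 3818 to 6934 CPM in untreated *hsf-1(sy441)* against 1786 to 2680 CPM in untreated N2, and 4886 to 11084 CPM in heat-shocked *hsf-1(sy441)* against 2293 to 4084 CPM in heat-shocked N2. In untreated animals, hypodermis markers (*dpy-7*, *col-19* and *col-140*) were also higher, 2842 to 5384 against 1199 to 2327 CPM. Intestine markers (*ges-1*, *elt-2*, *vit-2* and *vit-6*) overlapped, 66338 to 76443 against 62692.5 to 90378 CPM. Neuron markers (*rab-3*, *unc-119*, *snb-1* and *rgef-1*) were lower, 122.4 to 147.8 against 148.1 to 172.6 CPM. In heat-shocked animals, hypodermis, intestine and neuron markers all overlapped. The ratio of the subunit genes to the germ line markers was 0.576 to 0.719 in untreated *hsf-1(sy441)* against 0.558 to 0.573 in untreated N2, and 0.674 to 0.887 against 0.594 to 0.706 in heat-shocked animals of the same genotypes. It was thus above N2 without overlap in untreated and with overlap in heat-shocked *hsf-1(sy441)*. The part of tissue composition in the differences from N2 was not tested.

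Between treatments, the same ratio was 0.594 to 0.706 in heat-shocked against 0.558 to 0.573 in untreated N2, and 0.615 to 0.688 in heat-shocked against 0.545 to 0.558 in untreated *hsf-1CTD*, with no overlap in either. In *hsf-1CTD* the marker sums were themselves lower in heat-shocked animals without overlap, 12010 to 13346 against 13701 to 14521 CPM. The subunit sums there overlapped, 8013 to 8674 against 7556 to 8101 CPM. The ratio was 0.581 to 0.756 against 0.584 to 0.594 in *hsf-1FL* and 0.674 to 0.887 against 0.576 to 0.719 in *hsf-1(sy441)*, with overlap. Between libraries of the same number, the ratio was higher in the heat-shocked library in 11 of 12 pairs, including 3 of 3 in *hsf-1(sy441)* and 2 of 3 in *hsf-1FL*. Without the 3 libraries of the lowest marker sums, the heat comparisons had median log2(fold-change) values over the 33 genes of 0.20 in *hsf-1FL*, 0.06 in *hsf-1CTD*, 0.17 in *hsf-1(sy441)* and 0.24 in N2. *rpn-3* was then a DEG in *hsf-1FL* and in N2 (adjusted P = 0.0030 and 0.0049, edgeR), where 3.19% and 1.93% of all genes were. No *hsf-1FL* library was left out. Replicate 1 of heat-shocked N2, which was left out, had the lowest subunit sum and the lowest *rpn-3* level of its group. Leaving it out thus raises the N2 median and the N2 value of *rpn-3*. Without the 3 libraries, *hsf-1(sy441)* over N2 had medians of −0.19 in untreated and −0.26 in heat-shocked animals, with 31 and 33 of 33 genes below 0.

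**Figure D5:**
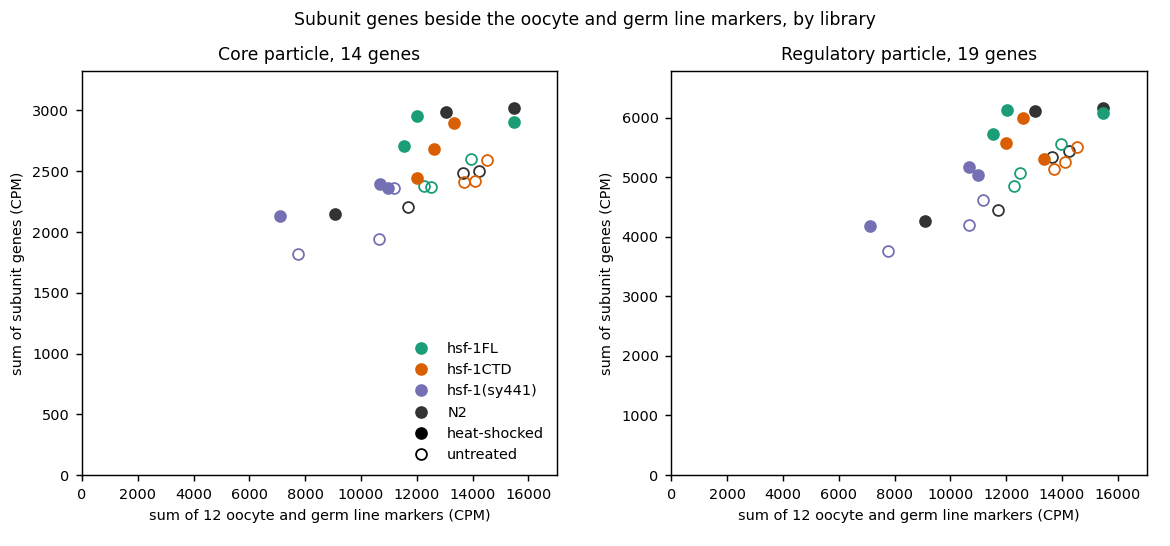
Summed CPM of the 14 core particle genes (left) and the 19 regulatory particle genes (right) against the summed CPM of 12 oocyte and germ line markers, 1 point for each of the 24 libraries, filled for heat-shocked and open for untreated animals. Libraries with lower marker sums tend to have lower subunit sums, and at a given marker level filled points tend to lie above open ones.

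Of 28 other genes of the pathway, all of them tested, 1 was a DEG in 1 of the 4 heat comparisons, where 0.669% to 1.72% of all genes were. They were *skn-1* with 5 regulators of SKN-1, 4 assembly factors and activators, 6 proteasome-associated genes and 12 genes of ubiquitin and of the CDC-48 segregase, which extracts ubiquitinated proteins for the proteasome. Their median log2(fold-change) on heat-shock was 0.10 in *hsf-1FL*, 0.08 in *hsf-1CTD*, 0.11 in *hsf-1(sy441)* and 0.06 in N2, with 26, 21, 21 and 20 of 28 above 0 (92.9%, 75%, 75% and 71.4%, against 47.0%, 47.6%, 55.2% and 52.1% of all genes). The DEG was *aip-1*, an ortholog of the arsenite-inducible AIRAP proteins that associate with the proteasome under stress.

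In *hsf-1CTD*, *aip-1* had 276, 105 and 167 CPM in heat-shocked against 37.0, 31.4 and 32.4 CPM in untreated animals, and it rose, with a fitted log2 value of 2.44 ± 0.48 (SE; adjusted P = 0.0073, edgeR). The call was lost without replicate 1 or 3 of the heat-shocked or any replicate of the untreated animals, with adjusted P-values between 0.0140 and 0.0520, and with surrogate variables in edgeR (0.0121). In *hsf-1FL* it had 112, 119.4 and 182 CPM in heat-shocked against 32.2, 41.8 and 35.0 CPM in untreated animals (1.92 ± 0.47, adjusted P = 0.0301). In N2 it had 41.2, 363 and 145 CPM in heat-shocked against 35.9, 36.6 and 36.9 CPM in untreated animals (2.33 ± 0.48, adjusted P = 0.0134). Replicate 1 of heat-shocked N2 was thus near the untreated level, and without it the value was 2.80 ± 0.34, with an adjusted P-value of 1.08e-04, while without replicate 2 of heat-shocked N2 the value was 1.35. In *hsf-1(sy441)* it had 61.8, 75.3 and 50.1 CPM in heat-shocked against 30.0, 32.5 and 27.2 CPM in untreated animals (1.06 ± 0.46, adjusted P = 0.208). The groups did not overlap in any genotype. The count of 1 DEG held for this fit, and DESeq2 also called *aip-1* in *hsf-1FL* (adjusted P = 9.20e-04) and N2 (adjusted P = 2.99e-05). The difference of this response from that of N2 did not pass the test in any genotype.

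The gene *skn-1* had log2(fold-change) values of 0.11, 0.08, 0.32 and 0.07 on heat-shock in *hsf-1FL*, *hsf-1CTD*, *hsf-1(sy441)* and N2, with adjusted P-values of 0.199 or higher (edgeR). It and the regulators of SKN-1 together (*ddi-1*, *png-1*, *sel-1*, *sel-11* and *wdr-23*) had medians of 0.08 in *hsf-1FL*, 0.06 in *hsf-1CTD*, 0.19 in *hsf-1(sy441)* and −0.02 in N2. Between untreated *hsf-1(sy441)* and untreated N2 all 6 were below 0, with a median of −0.18. The lowest was *ddi-1*, which encodes the protease that activates SKN-1 when proteasome function is low, with 95.7, 101 and 71.1 CPM in *hsf-1(sy441)* against 136, 120.1 and 129 CPM in N2, no overlap and a difference of −0.52 ± 0.14 on the log2 scale (SE; adjusted P = 0.0365, edgeR). With surrogate variables this difference was −0.26 in edgeR and −0.23 in DESeq2 (adjusted P = 0.265 and 0.298). The 28 pathway genes had a median of −0.24 there, close to the −0.26 of the subunit genes, and 0 of 28 were DEGs, with 8 past an unadjusted P-value of 0.05, all lower (28.6%, against 13.4% of all genes).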

How the data were processed

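RNA of whole animals was sequenced in 24 libraries. The authors trimmed reads with Trim Galore 0.6.7-1, aligned them to WBcel235 with STAR 2.7.10a and counted them with featureCounts (Subread 2.0.3). The deposited values are raw counts of 46934 annotated genes (release 107), not normalized; symbols were matched for 44113 of the gene identifiers. The strand setting is not given in the sources used here, so reads in the few exon overlaps with neighbours (up to 394 bases, *rpn-7*) cannot be assigned by strand. Columns were matched to samples by name, and treatment was taken from the treatment label, since the heat protocol is written on all samples.

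A gene was tested if 3 or more libraries had 10 or more counts of it. The fit had a mean for each of 8 conditions, TMM scaling and the quasi-likelihood F-test of edgeR 4.0.16 (R 4.3.3), Benjamini-Hochberg adjustment over 15256 genes and DEGs at an adjusted P-value under 0.01. CPM use the TMM factors. The procedure was run on simulated data with known changes, and the share recovered is not given here. How small a change it can call is therefore not shown. The study's methods call the replicates biological. Same-numbered heat-shocked and untreated libraries of a genotype deviated together from their condition means, with correlations over genes of 0.26 to 0.62 in *hsf-1FL*, 0.25 to 0.81 in *hsf-1(sy441)* and 0.32 to 0.59 in N2, but −0.05 to 0.27 in *hsf-1CTD*, so that the replicate block is printed beside results it changes.

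Alternatives were DESeq2 1.42.0, surrogate variables of sva 3.50.0, other scaling, filters, thresholds and subsets of libraries. The paper found its DEGs with DESeq2 and a correction by sva, so the edgeR fit departs from its method. The nearest alternative, DESeq2 with surrogate variables, called 2, 0, 2 and 3 subunit genes on heat in *hsf-1FL*, *hsf-1CTD*, *hsf-1(sy441)* and N2. It called 7.02%, 9.19%, 12.6% and 7.16% of all genes there, and its subunit median in *hsf-1CTD* was −0.06. The members, the gene lists and the tests were chosen with earlier results of these data known. All subunit genes could be named. By rule, values in every library were given for those called in the edgeR fit without a block, of which there were none. They were also given for the highest and lowest per kb over the 8 conditions, heat-shocked ones included. Those of other genes were chosen after they were seen.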

Additional observations from a re-analysis of the deposited data

How the results depend on the processing

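The count of subunit genes called, 0 in each comparison, and their medians were recomputed under the alternatives. In the heat comparisons, DESeq2 called 1 gene in *hsf-1FL* and 1 in *hsf-1(sy441)*, edgeR with surrogate variables 1 in *hsf-1(sy441)* and 1 in N2 (with 8.65% and 3.80% of all genes), DESeq2 with surrogate variables 2 in *hsf-1FL*, 2 in *hsf-1(sy441)* and 3 in N2 (with 7.02%, 12.6% and 7.16% of all genes), and scaling by library size only 1 in *hsf-1(sy441)* (with 1.57%). With the replicate number as a block within genotype (replicate block), 3 were called in *hsf-1FL*, 2 in *hsf-1(sy441)* and 1 in N2. The counts for *hsf-1CTD* and for the interactions stayed at 0 with it. This block was not fitted to the comparisons with N2 under the same treatment. An additive replicate block called 0. At an adjusted P-value under 0.05, 1 gene was called for heat in *hsf-1(sy441)* and 3 for untreated *hsf-1(sy441)* over N2 (3.03% and 9.09% of the subunit genes, against 5.30% and 8.32% of all genes). DESeq2 with surrogate variables called 1 for untreated and 4 for heat-shocked *hsf-1(sy441)* over N2 (with 1.97% and 4.12% of all genes). Leaving out 1 library gave 0 to 1 called for heat in *hsf-1(sy441)* and 0 to 1 for heat-shocked *hsf-1(sy441)* over N2. Without the 3 libraries lowest in germ line markers, chosen after the data were seen, 1 gene was called in *hsf-1FL* and 1 in N2 (with 3.19% and 1.93% of all genes). The cause was not tested.

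With surrogate variables in edgeR, the median on heat in *hsf-1CTD* was −0.10, and −0.11 for the regulatory particle. The regulatory particle's interaction median in *hsf-1CTD* was 0.13 with library size only and −0.19 with surrogate variables in edgeR, and the core particle's in *hsf-1(sy441)* was −0.16 without the 3 libraries. Leaving out 1 library gave medians on heat in N2 of 0.021 to 0.27. The sign of *pbs-1* on heat turned in *hsf-1FL* with DESeq2 (0.01476), RLE scaling (0.01482), library size only (0.01325), a fit of only the libraries compared (1.10e-04) and single libraries left out (−0.096 to 0.085), and in N2 without the 3 libraries (0.088) and with single libraries left out (−0.21 to 0.11).

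The order of levels depends on gene length, with a Spearman's rho of 0.44 between the orders with and without division by length. Between conditions of 3 libraries each, SEs of the log2(fold-change) ranged between 0.102 and 0.278 among the subunit genes, and counting error is small beside the spread between libraries, since the lowest count of a subunit gene other than *rpn-6.2* was 1410.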
